A study of Mus musculus with 6 samples.

Results

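The enzymes of triglyceride synthesis were followed through 10 genes in primary hepatocytes, which make up most of the liver. They are Gpam, Gpat3, Gpat4, Agpat2, Lpin1, Lpin2, Lpin3, Dgat1, Dgat2 and Mogat1, taken by gene name for their place in the pathway, with earlier results of these data known. All 10 were found among the 25718 genes of the deposited table, and all 10 were among the 15957 genes tested after edgeR's filter for low counts. The cells came from alcohol-fed wild-type (WT) mice and alcohol-fed mice heterozygous for an S100a16 knockout allele (S100a16KO+/-), with 3 libraries from each genotype. S100A16 knockdown is the name of the second group in the sample labels, while the description of the series and the study's methods give the heterozygous knockout. S100A16 is a calcium-binding protein, and the study asked what its loss does to lipid accumulation in alcohol-fed liver.

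Per the methods, the allele was made by EIIa-Cre excision of floxed exons, which acts in the early embryo and therefore in all cell types. Homozygous loss was lethal, so that heterozygous animals were used, after backcrossing to C57BL/6. All animals were male and 8 to 10 weeks old. Both genotypes received a control liquid diet for 5 days, then a diet with 5% ethanol for 10 days and a gavage of 5 g/kg ethanol, with collection 9 h later. No library from mice without ethanol was analysed here. The sources do not say whether each library came from a separate mouse, so p-values measure the spread between these libraries.

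Triglyceride is built on glycerol 3-phosphate by a chain of enzymes in the endoplasmic reticulum and the outer mitochondrial membrane. Glycerol-3-phosphate acyltransferases (GPATs) add a fatty acid to give lysophosphatidate, and AGPAT enzymes add another to give phosphatidate. Lipins remove the phosphate and leave diacylglycerol, and DGAT enzymes add the last fatty acid. Monoacylglycerol acyltransferases such as MOGAT1 reach diacylglycerol from monoacylglycerol instead. In liver, the product is stored in lipid droplets or secreted in very low density lipoprotein, and lipin 1 has a further role in the nucleus as a coactivator of genes of fatty acid oxidation.

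The genes of the chain moved in both directions. Of the 10, 7 had an adjusted p under 0.05, where 22.8% of all tested genes did. Lpin1, Lpin2 and Gpat4 were higher in S100a16KO+/- hepatocytes, and Gpam, Gpat3, Agpat2 and Dgat2 were lower. For each of these 7, the genotypes did not overlap in any library, which held for 37.9% of all tested genes. Lpin3, Dgat1 and Mogat1 did not pass the test, and their values overlapped between genotypes. The median absolute log2 fold change of the 10 genes was 0.46, beside 0.25 over all tested genes. By the criterion of the study, at least 2-fold with an unadjusted p under 0.05, only Lpin1, Gpam and Gpat3 counted as differentially expressed, where 4.52% of all tested genes did.

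**Figure D1:**
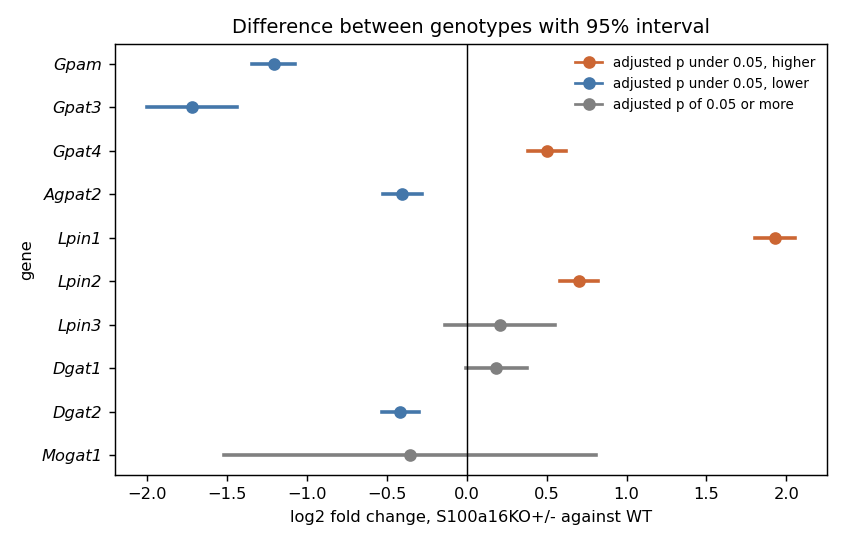
Log2 fold change of the 10 genes in S100a16KO+/- against WT hepatocytes from edgeR's quasi-likelihood fit, with the 95% interval as a bar and the genes in the order of the pathway. Lpin1 at 1.93 and Gpat3 at -1.72 lie farthest from 0 in either direction, and the intervals of Lpin3, Dgat1 and Mogat1 include 0.

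The estimated counts of a library added up to between 67658095 and 71807834, at about 4 counts for each sequenced fragment. S100a16 itself, which checks the labels, fell from 15.3 ± 0.796 to 5.80 ± 0.628 CPM (counts relative to the TMM-scaled library size, SD, n = 3 each), to 38.0% of its WT level. Hepatocyte markers summed to 119030 to 130874 CPM in WT and 114913 to 126634 CPM in S100a16KO+/- libraries. Of the 9, Ttr and Cyp2e1 were lower and Tat was higher. Markers of other liver cells moved with genotype. The 6 stellate cell markers summed to 38.6 to 42.5 CPM in WT and 69.3 to 76.2 CPM in S100a16KO+/- libraries, with 4 of 6 higher. The 6 sinusoidal endothelial markers summed to 183 to 190.1 CPM and 260.1 to 266.1 CPM, with 5 higher and Lyve1 lower. Of the 8 macrophage markers, Marco and Cd68 were higher, with sums of 122 to 149 CPM and 143 to 155 CPM. Erythroid markers were lower for 5 of 5, with sums of 215 to 252 CPM in WT and 23.4 to 26.3 CPM in S100a16KO+/- libraries. Cholangiocyte markers summed to 4.59 to 6.43 CPM and 4.89 to 5.47 CPM, with Sox9 lower. The lymphocyte and neutrophil markers, none of which passed the test, summed to 7.57 to 10.8 CPM and 10.8 to 11.9 CPM. The 3 adipocyte markers in the table summed to 8.60 to 9.59 CPM in WT and 6.06 to 8.58 CPM in S100a16KO+/- libraries. Only 1 of these 3 was tested, and it was not called. Adipoq and Plin1 stayed at or under 12 counts in every library. The part of these cells in the results below was not tested, and in bulk RNA a change in the number of cells of a type and a change in RNA per cell cannot be told apart. WT replicate 1 and S100a16KO+/- replicate 2 had the highest mitochondrial share of counts of their genotypes, 21.1% and 20.1%, against 17.0% to 18.6% in the other 4 libraries.

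Promoter windows show sequence ahead of annotated starts of genes that moved. They are the 250 bases before a RefSeq start on GRCm38.p6, which need not be the start in the deposited table: the windows of Lpin1 and Lpin2 lie within the spans the table gives these genes. Of the 10 genes, 7 have at least 1 such window in the RefSeq table used. The 4 printed are the first listed window of each gene that passed the test and whose first window does not touch an annotated exon, a pair from genes that rose and a pair from genes that fell. Lpin2 has 3 windows and Gpam has 2, and the others are not printed. Each runs 5′ to 3′ on the strand of its gene, and capitals mark a match to 1 of the motifs searched on both strands. The motifs were the E-box CACGTG, the CCAAT box CCAAT, the core TGACGT shared by cyclic AMP and unfolded protein response elements, the sterol regulatory core TCACNCCAC, the nuclear receptor direct repeat of AGGTCA with 1 base between its copies, and the endoplasmic reticulum stress element, CCAAT and CCACG with 9 bases between them, which contains a CCAAT box.
Lpin1, higher, chr12:16610967-16611216, minus strand: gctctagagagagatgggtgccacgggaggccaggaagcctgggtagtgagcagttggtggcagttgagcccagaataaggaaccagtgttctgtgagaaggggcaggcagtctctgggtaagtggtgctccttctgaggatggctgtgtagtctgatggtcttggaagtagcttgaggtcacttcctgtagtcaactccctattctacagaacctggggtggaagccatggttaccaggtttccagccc
Lpin2, higher, chr17:71183282-71183531, plus strand: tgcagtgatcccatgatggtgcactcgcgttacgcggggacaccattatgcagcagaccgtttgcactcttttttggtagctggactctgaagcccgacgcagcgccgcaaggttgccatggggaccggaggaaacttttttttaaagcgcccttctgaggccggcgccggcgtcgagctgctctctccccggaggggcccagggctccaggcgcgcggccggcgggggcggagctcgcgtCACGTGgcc
Gpam, lower, chr19:55127239-55127488, minus strand: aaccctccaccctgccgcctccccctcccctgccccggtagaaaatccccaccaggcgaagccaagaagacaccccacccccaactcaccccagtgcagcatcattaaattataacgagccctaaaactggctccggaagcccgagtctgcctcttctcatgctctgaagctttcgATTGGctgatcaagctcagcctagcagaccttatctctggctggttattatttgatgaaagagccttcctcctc
Agpat2, lower, chr2:26604418-26604667, minus strand: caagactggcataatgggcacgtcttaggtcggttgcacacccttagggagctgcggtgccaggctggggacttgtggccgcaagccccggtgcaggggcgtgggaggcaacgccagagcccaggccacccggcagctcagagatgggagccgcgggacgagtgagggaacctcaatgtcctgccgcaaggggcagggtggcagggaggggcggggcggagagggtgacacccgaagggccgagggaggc

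The printed Lpin2 window held an E-box that begins 9 bases before the start, a motif found in 6.02% of all RefSeq windows of the same length. Of the other windows of Lpin2, the second held no searched motif, and the third, which lies at a later start, held 3 CCAAT boxes and no E-box. The printed Gpam window held a CCAAT box on the opposite strand. A CCAAT box on either strand was found in 33.8% of all windows. The other Gpam window, which overlaps an exon, held a TGACGT core. The unprinted Gpat3 window, which lies within annotated exons, also held this core, beginning 153 bases before the start. No searched motif was present in the printed windows of Lpin1 and Agpat2. The sterol regulatory core was found in 1.05% of all windows, the TGACGT core in 6.47%, the direct repeat in 0.0335% and the stress element in 0.113%. These matches describe the letters of the windows only.

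The pathway opens with the GPAT enzymes, and here the members moved in opposite directions. Gpam encodes GPAT1, the mitochondrial enzyme that commits fatty acids to glycerolipid. It lies on chromosome 19 from 55067268 to 55127216 in the table, on mm10. Its levels were 119, 134 and 129.6 CPM in WT replicates 1, 2 and 3 and 58.1, 52.7 and 54.9 CPM in S100a16KO+/- replicates 1, 2 and 3. The lowest WT library thus lay well above the highest S100a16KO+/- library. Gpam fell to 43.3% of its WT level, or by 1.21 ± 0.06 on the log2 scale (standard error, edgeR adjusted p = 4.86e-09).

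Gpat3 encodes a GPAT of the endoplasmic reticulum that is prominent in fat cells, and lies on chromosome 5 from 100845713 to 100899102. It was at 26.8, 31.8 and 31.1 CPM in the WT libraries and at 11.2, 7.72 and 8.33 CPM in the S100a16KO+/- libraries. The genotypes were far apart. Its fall, to 30.4% of the WT level, was the largest among the 10 genes (log2 fold change -1.72, standard error 0.13, adjusted p = 6.62e-07) and stood at rank 115 among the falls of all tested genes. S100a16KO+/- replicate 1 was the highest library of its genotype, and the coefficient of variation there was 20.5%, against 8.97% in WT. Gpat3 shares 1052 exon bases with an antisense gene, 4930458D05Rik, which had 7 to 83 estimated counts against 496 to 2238 for Gpat3. On the same strand, Gpat3 shares 259 exon bases with Gm42987, which had 1 to 18 estimated counts.

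Gpat4 encodes the other GPAT of the endoplasmic reticulum, which can move onto growing lipid droplets. It lies on chromosome 8 from 23171265 to 23208346. Its WT libraries had 102, 106 and 103 CPM and its S100a16KO+/- libraries 151, 138 and 152 CPM, without overlap. Gpat4 rose 1.42-fold (log2 fold change 0.50, standard error 0.06, adjusted p = 1.24e-05).

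The makeup of the family shifted accordingly. FPKM values, which are scaled for transcript length, allow levels of different genes to be added. The summed FPKM of the 3 GPAT genes was 34.6, 41.5 and 39.8 across the WT libraries, with 31.5, 26.1 and 31.1 across the S100a16KO+/- libraries. The sum was lower in every S100a16KO+/- library, at 0.766 times the WT mean. Gpam held 43.9% to 44.6% of this sum in WT and 24.7% to 25.7% in S100a16KO+/- libraries. The share of Gpat3 was 19.7% ± 0.832 in WT and 7.83% ± 1.23 in S100a16KO+/- hepatocytes (SD, n = 3 each). Gpat4 held 35.9% ± 1.19 in WT and 67.0% ± 1.38 in S100a16KO+/- hepatocytes (SD, n = 3 each). Gpam was thus the leading GPAT transcript in every WT library and Gpat4 in every S100a16KO+/- library. Each of these differences had a two-sided exact permutation p of 0.1, the smallest that 3 libraries against 3 allow. Adjustment left it at 0.1, for the shares over the 7 family shares compared and for the sum over the 3 family sums.

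**Figure D2:**
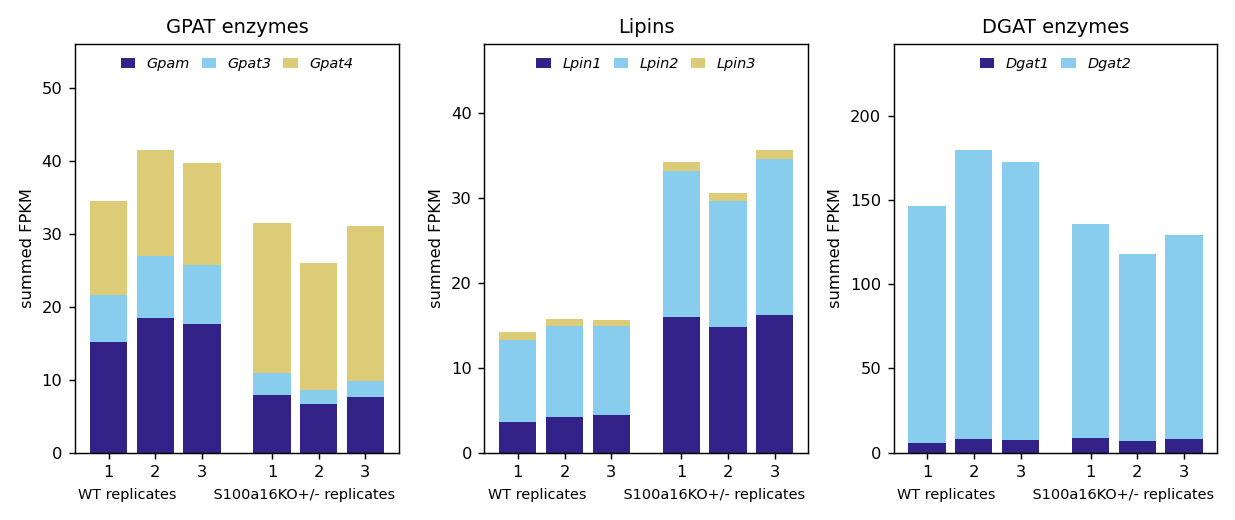
Summed FPKM of the GPAT genes, the lipins and the DGAT genes in each of the 6 libraries, as stacked bars with a color per gene, on separate vertical axes that start at 0. The lipin sum is 14.2 to 15.7 in WT and 30.6 to 35.7 in S100a16KO+/- libraries, while the GPAT and DGAT sums are lower in every S100a16KO+/- library.

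Agpat2 encodes the lysophosphatidate acyltransferase whose loss causes generalized lipodystrophy. It lies on chromosome 2 from 26593057 to 26604332. The WT libraries had 125, 127 and 127 CPM, and the S100a16KO+/- libraries had 90.0, 101 and 95.3 CPM. The WT libraries differed little among themselves in CPM, with 49.8 to 54.9 in FPKM, and lay above all S100a16KO+/- libraries. Agpat2 fell to 75.7% of the WT level (log2 fold change -0.40, standard error 0.06, adjusted p = 0.000116). Its transcript shares 64 exon bases with Egfl7 on the opposite strand, which had 1107 to 1655 estimated counts against 6239 to 8926 for Agpat2.

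Of the lipins, Lpin1 and Lpin2 rose. Lpin1, the lipin with the best known coactivator role and one that responds to fasting and glucocorticoids in liver, lies on chromosome 12 from 16535669 to 16646966 in the table. GENCODE M21 ends this gene at 16610966, just beside the printed window. Lpin1 was at 43.0, 45.4 and 48.3 CPM in the WT libraries and at 174, 174 and 173 CPM in the S100a16KO+/- libraries. The coefficient of variation of the latter was 0.149% in CPM, and every one of them was more than 3 times the highest WT library. In FPKM the same S100a16KO+/- libraries ran from 14.8 to 16.3, so their closeness in CPM depended on the scaling. Lpin1 was 3.81-fold higher (log2 fold change 1.93 with a 95% interval from 1.81 to 2.05, adjusted p = 1.19e-11), at rank 138 among the rises of all tested genes.

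Lpin2 encodes a lipin prominent in liver and lies on chromosome 17 from 71182560 to 71249817. Its levels were 139, 142 and 141 CPM in the WT libraries and 230.5, 214 and 241 CPM in the S100a16KO+/- libraries. The genotypes were again fully apart. The rise was 1.63-fold (log2 fold change 0.70, adjusted p = 3.89e-07), with a 95% interval from 0.58 to 0.82 that did not reach the interval of Lpin1.

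Lpin3, a lipin better known from intestine, lies on chromosome 2 from 160880670 to 160906002 and was scarce. It had 4.09, 3.31 and 3.17 CPM in the WT libraries and 3.97, 4.06 and 4.17 CPM in the S100a16KO+/- libraries, so that WT replicate 1 lay within the range of the other genotype. The log2 fold change was 0.21 with a 95% interval from -0.14 to 0.55 (adjusted p = 0.413), and it was 0.33 without WT replicate 1 and 0.14 without WT replicate 3.

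Added per length, the lipins stood at 14.2, 15.7 and 15.6 FPKM in the WT libraries and at 34.2, 30.6 and 35.7 FPKM in the S100a16KO+/- libraries, 2.20 times the WT mean. Lpin1 held 26.9% ± 1.20 of the lipin sum in WT and 46.9% ± 1.42 in S100a16KO+/- hepatocytes (SD, n = 3 each). Lpin2 held 67.5% ± 0.577 and 50.1% ± 1.48 (SD, n = 3 each), although its own level rose. The share of Lpin3 was 5.58% ± 0.838 in WT and 2.95% ± 0.0872 in S100a16KO+/- hepatocytes (SD, n = 3 each). The exact permutation p was 0.1 for the sum and for each share.

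At the last step the abundant enzyme was lower. Dgat2, which encodes the DGAT that esterifies newly made fatty acids, lies on chromosome 7 from 99153658 to 99182719. It was at 509.7, 574 and 559.8 CPM in the WT libraries and at 427, 405 and 400.5 CPM in the S100a16KO+/- libraries. All S100a16KO+/- values lay below all WT values. Dgat2 fell to 75.0% of the WT level (log2 fold change -0.42, standard error 0.05, adjusted p = 6.31e-05). The call was lost with limma on log2(FPKM + 1) over all genes detected in any library. The adjusted p there was 0.0749 at a log2 fold change of -0.40.

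Dgat1 encodes the unrelated DGAT that mainly uses preformed fatty acids and lies on chromosome 15 from 76502015 to 76511951. It had 21.2, 26.1 and 24.5 CPM in the WT libraries and 29.3, 25.0 and 27.3 CPM in the S100a16KO+/- libraries. The ranges overlapped, since S100a16KO+/- replicate 2 lay below WT replicate 2. Its log2 fold change was 0.18 with a 95% interval from -0.01 to 0.37 (adjusted p = 0.160), and it was 0.10 without WT replicate 1. Dgat2 held 95.8% ± 0.182 of the summed FPKM of both genes in WT and 93.8% ± 0.332 in S100a16KO+/- hepatocytes (SD, n = 3 each, exact permutation p = 0.1).

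Mogat1 lies on chromosome 1 from 78510991 to 78538173 and was close to the limit of detection. Its estimated counts were 21, 25 and 50 in WT replicates 1 to 3, and 14, 33 and 27 in S100a16KO+/- replicates 1 to 3, about 4 of which make a fragment. Mogat1 shares 200 exon bases with BC035947 on the opposite strand, which had 0 to 5 estimated counts. The genotypes overlapped broadly for Mogat1. At this depth the log2 fold change of -0.35 had a 95% interval from -1.52 to 0.81 (adjusted p = 0.711), an interval wide enough to hold a rise or a fall of 1.5-fold.

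Per length, the order of the genes changed between genotypes. In WT hepatocytes Dgat2 led with 159 ± 16.6 FPKM, followed by Agpat2 with 52.9 ± 2.75, Gpam with 17.1 ± 1.74, Gpat4 with 13.9 ± 0.870 and Lpin2 with 10.3 ± 0.558 (SD, n = 3 each). Gpat3 with 7.64 ± 1.01 and Dgat1 with 7.00 ± 1.03 FPKM overlapped in range. Lpin1 came next with 4.10 ± 0.382 FPKM, above Lpin3 and Mogat1, which both stayed under 1 FPKM. In S100a16KO+/- hepatocytes Dgat2 with 119.6 ± 7.82 and Agpat2 with 40.2 ± 1.55 FPKM still led. Gpat4 with 19.8 ± 2.01, Lpin2 with 16.8 ± 1.79 and Lpin1 with 15.7 ± 0.772 FPKM followed. Lpin2 overlapped in range with both Gpat4 and Lpin1. Dgat1 and Gpam also overlapped, at 8.00 ± 0.947 and 7.45 ± 0.666 FPKM, and Gpat3 came after them at 2.33 ± 0.539 FPKM. Lpin1 thus stood in place 8 of 10 in WT and in place 5 in S100a16KO+/- hepatocytes, and Gpam moved from place 3 to place 7.

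**Figure D3:**
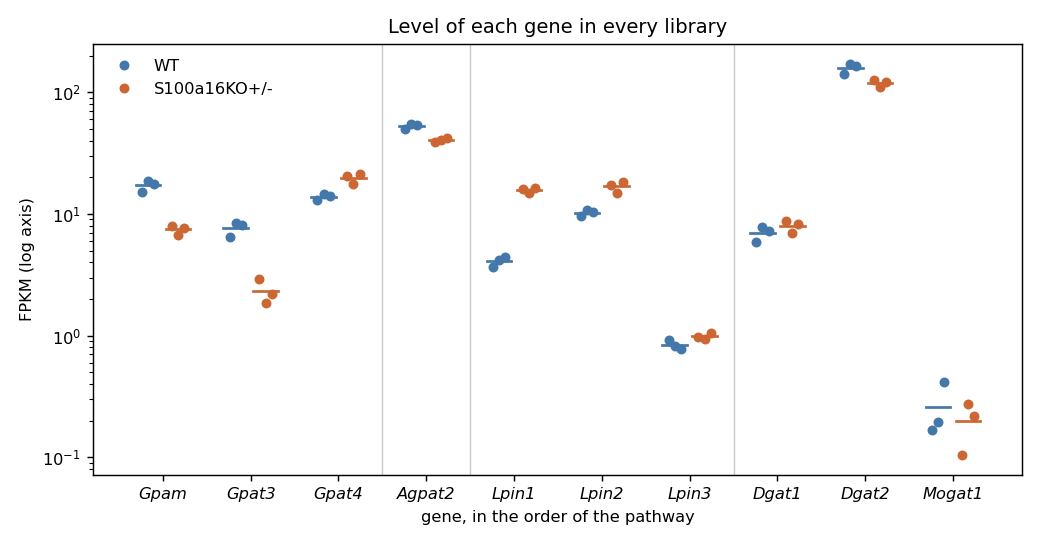
FPKM of the 10 genes in every library on a log axis, in the order of the pathway, with WT in blue, S100a16KO+/- in orange and a line at each mean of 3 libraries. The genotypes are apart for Gpam, Gpat3, Gpat4, Agpat2, Lpin1, Lpin2 and Dgat2, and Dgat2 has the highest level in both.

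The reactions around this chain were described with 73 other genes of glycerolipid metabolism, of which 66 were tested. Of these, 10 rose and 15 fell in S100a16KO+/- cells, 37.9% of them beside 22.8% of all tested genes. By direction, 11.6% of all tested genes were higher and 11.2% lower, the shares to set beside each list below. The median log2 fold change of the 66 genes was 0.02 beside 0.01 over all tested genes. Their median absolute log2 fold change was 0.20, beside 0.25 over all tested genes. This median was 0.19 over the 9043 tested genes that averaged 1 FPKM or more, a level reached by 54 of the 66 genes. Without WT replicate 1 and S100a16KO+/- replicate 2, 8 of the other glycerolipid genes were higher and 16 lower. The calls of the 10 main genes stayed at 3 higher and 4 lower there.

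Glycerol 3-phosphate supply had 2 genes lower and 1 higher of 5. Gpd1, the cytosolic enzyme that makes glycerol 3-phosphate from a glycolytic intermediate, fell from 311 ± 11.4 to 187 ± 8.20 CPM (SD, n = 3 each), to 60.2% of WT (log2 fold change -0.73, adjusted p = 1.78e-07). Gpd2, its mitochondrial counterpart, fell by 0.58 on the log2 scale, and Gpd1l rose by 0.22. Of the 8 genes of fatty acid activation, which make acyl-CoA, 3 rose and 1 fell. Acsl1, an abundant acyl-CoA synthetase of liver, fell from 471 ± 20.7 to 342 ± 15.2 CPM (SD, n = 3 each, log2 fold change -0.46, adjusted p = 1.68e-05). Acsl3 and Acsl4 both rose, each with a log2 fold change of 0.60.

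Of 8 other acyltransferases of the pathway, Agpat3 was higher (log2 fold change 0.17, adjusted p = 0.0444) and Tmem68 was lower (-0.38, adjusted p = 0.0255). Phosphatidate phosphatases outside the lipin family and the phosphatase complex that acts on lipins had 2 genes higher and 1 lower of 7 tested. Plpp5 and Plpp1 rose (log2 fold change 0.57 and 0.51) and Plpp3 fell (-0.29). Ctdnep1 and Cnep1r1, which encode the phosphatase that activates lipins and its partner, had log2 fold changes of 0.04 and -0.21 (adjusted p = 0.780 and 0.329). Among the genes grouped as nuclear partners of lipin 1, 1 of 4 passed the test. Ppargc1a, which encodes the coactivator PGC-1α, had 6.14 to 7.48 CPM in the WT libraries and 25.6 to 27.4 CPM in the S100a16KO+/- libraries (log2 fold change 1.96, standard error 0.09, adjusted p = 2.44e-09). Ppara, the nuclear receptor of fatty acid oxidation, was not called (log2 fold change -0.16, adjusted p = 0.124).

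Phosphatidate and diacylglycerol also feed phospholipids. In the phosphatidylcholine and phosphatidylethanolamine branch, 4 genes were lower and 1 was higher of 13 tested. Chka, a choline kinase, fell from 40.8 ± 1.10 to 17.3 ± 1.67 CPM (SD, n = 3 each), to 42.3% of WT (log2 fold change -1.24, adjusted p = 3.56e-08). Selenoi and Pcyt1a fell by 0.40 and 0.38 on the log2 scale. In the CDP-diacylglycerol branch, which leads to phosphatidylinositol and cardiolipin, Cds2 rose (0.38, adjusted p = 0.000229) and Crls1, the cardiolipin synthase, fell (-0.50, adjusted p = 0.000171) of 6 genes. Of 6 diacylglycerol kinases tested, Dgkd was lower (-0.32, adjusted p = 0.0285) and none was higher.

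The genes listed for lipid droplet formation, which include genes of droplet coating and fusion, were lower for 4 of 9 tested, and none was higher. Over all tested genes, 11.2% were lower and 11.6% higher. Fitm1, which partitions triglyceride into droplets, fell by 0.75 on the log2 scale (adjusted p = 0.00368), and the droplet protein Plin5 fell by 0.62 (adjusted p = 0.000104). Cideb, which acts in droplet fusion and lipoprotein lipidation, fell by 0.36 (adjusted p = 0.000169).

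**Figure D4:**
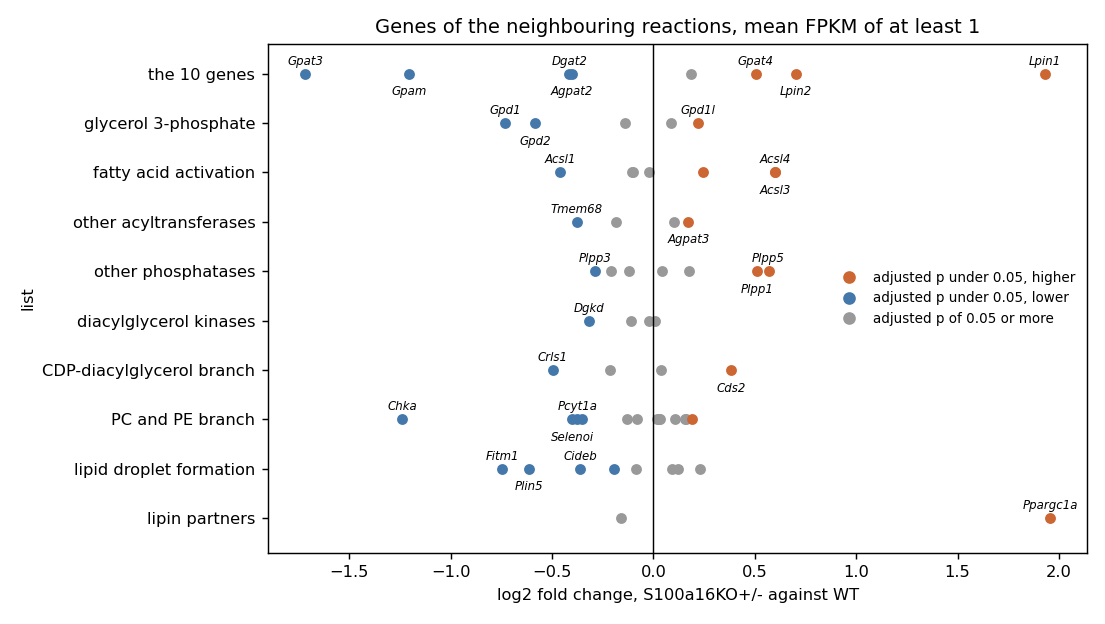
Log2 fold change in S100a16KO+/- against WT hepatocytes of 8 of the 10 genes and of 54 other glycerolipid genes, all with a mean FPKM of at least 1, with 1 line of points per group (PC, phosphatidylcholine, PE, phosphatidylethanolamine) and colored by the result of edgeR's test. Lpin1 and Ppargc1a lie farthest to the right at 1.93 and 1.96, and Gpat3 farthest to the left at -1.72.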

How the data were processed

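Poly(A)-selected, strand-specific paired-end RNA libraries of 6 hepatocyte samples were analysed, grouped by their labels. The submitters' processing notes name cutadapt 1.9, HISAT2 2.0.4, UMI-tools, StringTie 1.3.4d, DESeq2, edgeR and the build mm10, and the annotation is not given in the sources used here. The authors deposited 1 table with an estimated count, made with StringTie and not scaled for library size, for each gene and library. The deposited FPKM values beside it were scaled by the authors for transcript length and library size. Of its genes, 25655 occur in GENCODE M21 on GRCm38, 89.7% with the same start and end. Whether counting used strand is not stated.

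The whole-number counts have an excess at 4 in every library, so 1 fragment was worth about 4 counts. They were tested with edgeR 4.0.16 in R 4.3.3 (TMM scaling, filterByExpr, robust quasi-likelihood fit, two-sided, no covariate), with Benjamini-Hochberg adjustment over the 15957 tested genes and a threshold of 0.05. edgeR was used in place of the DESeq2 the study names for the comparison, and DESeq2 1.42.0 was an alternative. Standard errors are the log2 fold change divided by the root of its F statistic. Family sums and shares used the deposited FPKM and exact permutation tests (scipy 1.17.1). limma 3.58.1 served the alternatives on log2(FPKM + 1) and log2(FPKM + 0.1). The fits were checked on simulated counts. Intervals cover the spread between libraries and no other error. On counts divided by 4, counting noise gives a chi-square of about 1 per gene, and replicates of a genotype differed by 3.29 to 12.1. Pairs with WT replicate 1 or S100a16KO+/- replicate 2 gave 9.32 to 12.1, and the other pairs gave 3.56 and 3.29. Each library was treated as a replicate, though such an excess does not show that the libraries came from separate mice.

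All 10 genes are named whatever their values. Of each other list, up to 3 genes with the largest changes are named, among those with an adjusted p under 0.05 and a mean FPKM of at least 1. Genes named with a p of 0.05 or more outside this rule (Ctdnep1, Cnep1r1, Ppara) were chosen after their values were seen. The members and lists were chosen with earlier results of these data known. Same-numbered replicates of both genotypes had correlations of their deviations of -0.0472, -0.0237 and 0.0518. Replicates with different numbers ran from -0.0675 to 0.0841. No pairing by number was seen, though 3 libraries per genotype cannot exclude it, and the main test used none. Alternatives were other scalings, filters and tools, counts divided by 4, the replicate number as a block and leaving out each library. Leaving out both libraries with a high mitochondrial share, and scaling without mitochondrial genes, were chosen after seeing the data.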

Additional observations from a re-analysis of the deposited data

How the results depend on the processing

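Across the other scalings, filters and tools and with each library left out in turn, Lpin1, Lpin2 and Gpat4 stayed higher and Gpam, Gpat3 and Agpat2 lower with an adjusted p under 0.05. Dgat2 did so too except with limma on log2(FPKM + 1) without a filter (log2 fold change -0.40, adjusted p = 0.0749), a fit that tests more genes of low level; there 5 other glycerolipid genes were higher and 9 lower, in place of 10 and 15. Under the study's criterion of an unadjusted p under 0.05 and at least 2-fold, 1 of the 10 genes was higher and 2 were lower, by construction of that limit. With 1 library left out, Lpin3 ranged from 0.14 to 0.33 and Dgat1 from 0.10 to 0.25, both never called. Mogat1 ranged from -0.68 to 0.13, and its sign turned without WT replicate 3; it was not tested with counts divided by 4, the filter of 1 CPM or a mean FPKM of 1, and Lpin3 was not tested with the latter. Leaving out WT replicate 1 and S100a16KO+/- replicate 2 together, chosen after seeing the data, gave Lpin1 1.89 and Gpat3 -1.69. With the replicate number as a block, the log2 fold change was 1.93 for Lpin1 and -1.73 for Gpat3, with 3 of the 10 genes higher and 4 lower, 7 and 13 of the other genes, and no call of the 10 changed. Family sums and shares kept their direction in all alternatives run. With 3 libraries per genotype, their exact tests cannot pass 0.05, and the depth limits Mogat1 most.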
